A study of Mus musculus with 21 samples.

Results

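S100g, 1 of the 21441 genes listed in each of 6 deposited expression tables, encodes calbindin-D9k, a small calcium-binding protein of the cytosol. The gene was followed by its row in all 6 tables, which hold 21 RNA libraries of mouse colon and ileum. Each table sets 2 groups of 1 tissue side by side, and groups were compared only within a table. Values are FPKM, sequenced fragments per length of transcript, scaled to the size of the library.

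Calbindin-D9k belongs to the S100 family, whose members bind calcium through a pair of EF-hand loops. In the textbook account of transcellular calcium absorption, calcium enters the enterocyte through the apical channel TRPV6, crosses the cytosol bound to calbindin-D9k and leaves through the basolateral pump encoded by Atp2b1. The hormone 1,25-dihydroxyvitamin D3 (1,25D3) binds the vitamin D receptor (VDR), which acts on DNA together with RXR, and S100g is a classical VDR target in the duodenum of rodents. S100g was also among the 6 genes that the study measured by quantitative PCR, per the labels' protocols.

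The treated mice were CDX2-VDR transgenic animals, described in the labels as having no VDR of their own and expressing human VDR in the distal intestine, which had received 3 injections of 1,25D3 at 1 ng per g of body weight, 48, 24 and 6 h before termination. The uninjected mice carried the same transgene without these injections. The KO mice were Villin-CreERT2 VDR f/f, in which the villin promoter drives an inducible Cre recombinase in intestinal epithelium and the floxed gene is the mouse's own. All were on C57BL6J. The labels place 3 treated, 4 uninjected and 4 KO samples in the colon and 3 treated, 3 uninjected and 4 KO samples in the ileum, at 9 weeks of age for treated mice, 9 or 10 weeks for uninjected mice and 9 or 11 weeks for KO mice. The way the mouse receptor was lost, the transgene and in part age all separate transgenic from KO mice. Injection, 1,25D3 and in part age separate treated from uninjected mice. The factors within each contrast cannot be told apart here. Labelled sex adds to both contrasts of uninjected mice, most of which are labelled female, while treated and KO mice are labelled male. For ileum it could not be fitted, since uninjected libraries there match only a group. No label ties a sample to an animal, so a p-value reflects only spread among the samples as deposited, which may be technical. In bulk RNA, fewer cells of a type and less RNA per cell cannot be told apart either.

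Several libraries stood apart from their groups or labels. All treated and KO samples carry the label male, and most uninjected samples the label female. The Y-linked gene Ddx3y stood at 12.1 FPKM in the female-labelled Colon uninjected 3, against 0.0979 and 0.209 FPKM in the other female-labelled colon libraries. In 1 of these others the 5 genes of a sex list, the female marker Xist among them, summed to only 0.187 FPKM. Low Ddx3y was thus not matched by high Xist there. It stood at only 1.76 FPKM in the male-labelled Ileum treated 1, against 11.0 to 13.4 FPKM in KO ileum. Over the 14 pancreatic acinar genes of a marker list, summed FPKM reached 129947 in Colon uninjected 3, 42394 in Colon KO 2 and 23684 in Colon treated 4, against at most 864.1 FPKM in any other library. The labels name the tissue as intestinal epithelium, and all 8 epithelial markers were above 0 in every group, but smooth muscle markers summed to between 695 and 7944 FPKM and leukocyte markers to between 280.0 and 6370 FPKM over the libraries. The row of Vdr, the targeted gene, stood at 19.5 to 39.9 FPKM in treated, 12.7 to 34.3 FPKM in uninjected and 20.6 to 24.9 FPKM in KO colon libraries. In the ileum it stood at 12.3 to 21.2 FPKM in treated and 21.4 to 24.4 FPKM in uninjected libraries without overlap. Beside KO it stood at 22.1 to 24.9 FPKM in uninjected and 19.3 to 21.0 FPKM in KO libraries without overlap. Neither was called by limma (adjusted p = 0.999999 and 0.698). Over all genes tested, 1.22% were lower without overlap in the first comparison and 5.26% higher without overlap in the second. 1 value per gene does not show whether a part of the mouse gene was deleted. Depth was recovered from the steps of low FPKM values as 8.07 to 30.9 M reads per colon library and 15.5 to 43.5 M per ileum library, in the 80.0% and 80.3% of genes whose values came out as whole reads (within 0.01 reads).

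In the mm9 annotation S100g lies on chromosome X between 159399924 and 159402531 on the minus strand, in 3 exons of 87, 144 and 249 bases that code for 79 amino acids. The gene sits inside the span of Ctps2 (X:159339170-159470440), a CTP synthase gene on the opposite strand, but none (0) of its 480 exonic bases overlaps an exon of Ctps2. VDR, the receptor of this design, binds known short motifs, and so does the protein CDX2, whose gene gives the transgene its promoter. The bases before the annotated start of S100g are shown for this reason. The stretch below is RefSeq's window for the gene (table of GRCm38.p6), found once on chromosome X of mm9, printed in the direction of transcription at chrX:159402526-159402781 (mm9, minus strand). It holds 250 bases before the start and the first 6 bases from it.

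S100g promoter: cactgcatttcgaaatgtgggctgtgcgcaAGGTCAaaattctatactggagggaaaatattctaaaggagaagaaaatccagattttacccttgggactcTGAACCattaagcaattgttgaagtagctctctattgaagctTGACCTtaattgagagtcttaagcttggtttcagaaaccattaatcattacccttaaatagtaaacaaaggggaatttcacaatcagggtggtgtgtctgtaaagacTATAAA

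Capitals mark matches to the motifs searched on both strands. Of the hexamers bound by nuclear receptors such as VDR, AGGTCA was searched, then AGTTCA, then GGGTCA and lastly GGTTCA, each alone and as a pair in the same direction with 3 bases between. The CDX motif was searched as TTTATA or else TTTATG, and the TATA box as TATAAA. Counted from the start at 1, AGGTCA lies at -220 to -215, GGTTCA on the other strand at -149 to -144, AGGTCA on the other strand at -107 to -102, and TATAAA at 1 to 6, where the same letters read TTTATA on the other strand. AGGTCA occurs in 16.2% of the 32544 windows in the RefSeq table, GGTTCA in 10.4% and TATAAA in 13.6%. The paired hexamers, present in 13 windows (0.0399%), are not among the letters of this window.

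In the colon, S100g was far higher in uninjected transgenic mice than in KO mice. S100g stood at 5694, 1933, 27256 and 3176 FPKM in uninjected libraries 1 to 4, against 46.0, 53.4, 99.4 and 53.6 FPKM in KO libraries 1 to 4. Every uninjected library lay above every KO library, and the uninjected libraries spread 14.1-fold among themselves, with number 3 far above the others, while the KO libraries spread 2.16-fold. The means were 9515 ± 11930 FPKM (SD, n = 4) in uninjected colon and 63.1 ± 24.5 FPKM (SD, n = 4) in KO colon. On the log2(FPKM + 0.5) scale the difference was 6.52 (SE 0.712, 95% confidence interval 4.92 to 8.12), or 91.6-fold, with an adjusted p of 0.0129 by limma. Only 10 of the 12437 genes tested (0.0804%) passed an adjusted p of 0.05 there, S100g with the fifth smallest p and the second largest increase. The exact permutation test gave p = 0.0286, the smallest that 4 against 4 samples can give (two-sided), and 1.22% of genes tested were higher without overlap.

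The colon KO libraries were not at 0. S100g came to 333, 422, 674 and 514 reads in KO libraries 1 to 4, and the 95% Poisson interval of the lowest was 298 to 371 reads, which covers counting error only. It ranked between 1066 and 2005 among the 21441 genes of a KO library, against 3 to 76 in uninjected libraries. The adjusted p of the colon comparison (limma) was 0.0675 to 0.0779 when Colon KO 1, 2 or 4 was left out, with differences of 6.39 to 6.46. Without Colon uninjected 3, which held the highest S100g and the highest acinar sum, the difference was 5.75 (adjusted p = 0.00289, limma), and without the 2 libraries with the highest acinar sums it was 5.70 (adjusted p = 0.0206, limma), an alternative added after the data were seen. With labelled sex as a covariate it was 5.71 and no longer passed (adjusted p = 1.0, limma), but this fit takes Colon uninjected 3 as female, against its Ddx3y level. The single male-labelled uninjected library held 3176 FPKM, and no KO sample was female.

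**Figure D1:**
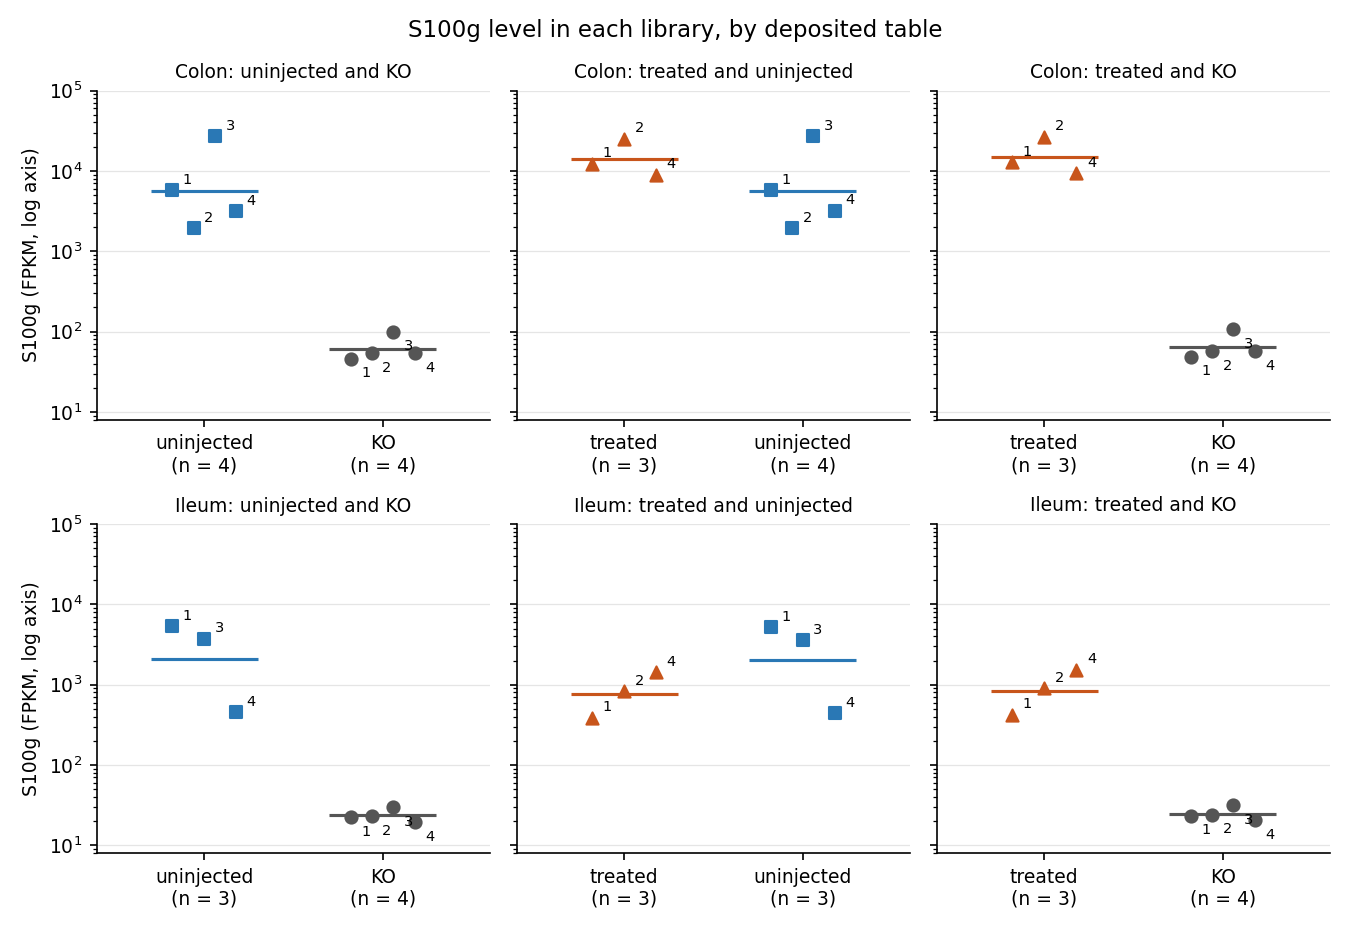
S100g in FPKM (log axis) in each library, in 6 panels of 1 deposited table each. Points are libraries with their number, and lines are the mean on the log2(FPKM + 0.5) scale, put back into FPKM. In the 4 panels with KO libraries the transgenic points all lie above the KO points, and in both panels of treated and uninjected libraries the groups overlap.

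Treated transgenic mice also had far more S100g RNA in the colon than KO mice. In the table of these groups S100g stood at 12977, 26663 and 9381 FPKM in treated libraries 1, 2 and 4, against 48.7, 56.6, 106.6 and 57.0 FPKM in KO libraries 1 to 4. All treated libraries were above all KO libraries, by at least 88.0-fold. The log2 difference was 7.84 (SE 0.406, 95% confidence interval 6.91 to 8.77), or 230-fold, with an adjusted p of 0.000163 by limma, the second smallest of 12505 genes. Of those genes 37 passed (0.296%), and 4.16% were higher without overlap. The exact permutation test gave p = 0.0571 (two-sided), the smallest that 3 against 4 samples can give. Smooth muscle markers summed to 1366 to 1700 FPKM in treated and 2276 to 3206 FPKM in KO colon without overlap, and their part in the result was not tested.

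Between treated and uninjected transgenic colon no difference in S100g was detectable at this spread. It stood at 12273, 25119 and 8949 FPKM in treated libraries 1, 2 and 4, against 5751, 1954, 27297 and 3194 FPKM in uninjected libraries 1 to 4. The treated libraries all lay above uninjected libraries 1, 2 and 4 and below uninjected 3, so the groups overlapped. The log2 difference was 1.33 (SE 0.855, 95% confidence interval -0.61 to 3.26), with an adjusted p of 0.9995 by limma and an exact permutation p of 0.286 (two-sided; smallest possible 0.0571). None (0) of the 12567 genes tested (0%) passed by limma there, and 143 had an unadjusted p under 0.05. Without Colon uninjected 3 the difference was 2.09 (unadjusted p = 0.00816, adjusted p = 0.892, limma). It was 0.82 without Colon uninjected 2 (adjusted p = 0.9996, limma) and 2.13 with labelled sex as a covariate (adjusted p = 1.0, limma).

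In the ileum S100g was higher in every transgenic library than in any KO library. It stood at 5345, 3733 and 453.1 FPKM in uninjected libraries 1, 3 and 4, against 22.6, 23.2, 30.2 and 19.6 FPKM in KO libraries 1 to 4. The uninjected libraries spread 11.8-fold, with number 4 far below the other two, and the KO libraries only 1.54-fold. The log2 difference was 6.43 (SE 0.735, 95% confidence interval 4.78 to 8.09), or 86.5-fold, the largest positive difference of the 11827 genes tested, with the second smallest p. Its adjusted p of 0.0577 by limma missed the threshold, which 1 gene passed in that comparison (0.00846%), a lower one, and 5.26% of genes were higher without overlap. Without Ileum uninjected 4 the difference was 7.53 and passed (adjusted p = 0.00012, limma). The exact permutation test gave p = 0.0571 (two-sided), the smallest that 3 against 4 samples allow. Labelled sex, which differs in part between these groups, was not fitted.

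Treated ileum held more S100g RNA than KO ileum. The gene stood at 425.3, 897.6 and 1543 FPKM in treated libraries 1, 2 and 4, against 23.5, 24.1, 31.7 and 20.7 FPKM in KO libraries 1 to 4. The lowest treated library was 13.4-fold above the highest KO library. The log2 difference was 5.06 (SE 0.408, 95% confidence interval 4.14 to 5.98), or 33.3-fold, with an adjusted p of 0.00206 by limma, where 10 of 11974 genes passed (0.0835%). The exact permutation p was 0.0571 (two-sided), again the smallest possible, and 3.03% of genes were higher without overlap. In 1 fit over all 3 ileum groups the adjusted p was 0.0620.

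Treated ileum lay on average below uninjected ileum, within a wide spread. S100g stood at 389.2, 832.3 and 1445 FPKM in treated libraries 1, 2 and 4, against 5172, 3607 and 443.9 FPKM in uninjected libraries 1, 3 and 4. Uninjected libraries 1 and 3 were above all treated libraries, and uninjected 4 lay among them. The log2 difference was -1.38 (SE 0.941, 95% confidence interval -3.55 to 0.78), with an adjusted p of 1.0 by limma, where none (0) of the 11815 genes passed (0%) and 97 had an unadjusted p under 0.05. The exact permutation p was 0.3 (two-sided; smallest possible 0.1). Labelled sex was not fitted in this comparison either. The difference was -2.47 without Ileum uninjected 4 (unadjusted p = 0.00590, adjusted p = 0.999, limma) and -0.70 without Ileum uninjected 1 (adjusted p = 0.99997, limma). The ileal markers held in the tables, 3 of a list of 5, are the bile acid carrier Fabp6, the bile acid transporter Slc10a2 and the ileal hormone Fgf15. They summed to 3613 to 7717 FPKM in treated and 13672 to 36357 FPKM in uninjected libraries without overlap. In the other table they summed to 3948 to 8243 FPKM in treated and 14631 to 37590 FPKM in KO libraries, and their part in the S100g results was not tested.

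The effects in ileum and colon were also set against each other in 1 fit over both tissues. It takes colon and ileum samples as independent, since no label ties them to 1 animal, and does not account for animals that gave both. For treated minus KO the log2 effect was 5.06 in the ileum and 7.84 in the colon, a difference of -2.79 (SE 0.610, 95% confidence interval -4.09 to -1.48). Its unadjusted p was 0.000452, but the adjusted p over 12448 genes was 0.341 by limma, and 1 gene passed (0.00803%). For treated minus uninjected the effect was -1.38 in the ileum and 1.33 in the colon, a difference of -2.71 (95% confidence interval -5.71 to 0.29, adjusted p = 0.99999, limma), where 0 of 12437 genes passed (0%) and 28 had an unadjusted p under 0.05. For uninjected minus KO the effects were 6.43 in the ileum and 6.52 in the colon. That difference was -0.08, and its interval of -2.47 to 2.31 reaches differences of over 4-fold in either direction (1 of 12364 genes passed, 0.00809%).

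**Figure D2:**
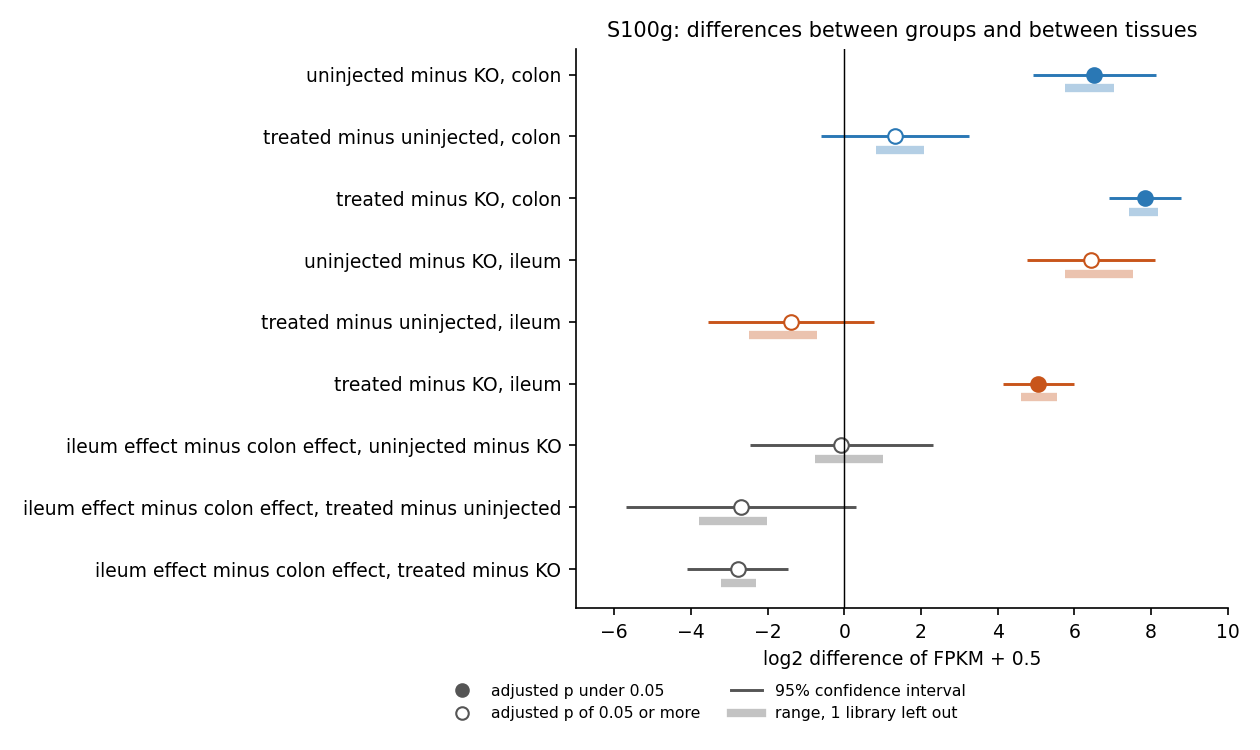
Log2 differences of S100g (FPKM + 0.5) for the 6 comparisons and for the 3 differences between tissues. Points are limma estimates, filled where the adjusted p was under 0.05, thin lines are 95% confidence intervals, and thick bars are the range of estimates with 1 library left out. The 4 differences from KO lie between 5.06 and 7.84, and both differences between treated and uninjected mice have intervals that include 0.

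The order of the levels within a tissue was thus treated, uninjected and KO by mean in the colon and uninjected, treated and KO by mean in the ileum. In each tissue the upper 2 groups overlapped and did not differ by the test, and every KO library lay below both. A library's share of summed FPKM is free of the factor between tables. S100g made up 1.45 to 3.43% of the summed FPKM in treated colon, 0.231 to 2.65% in uninjected colon and 0.00693 to 0.0138% in KO colon. The shares were 0.0416 to 0.224% in treated ileum, 0.0563 to 0.673% in uninjected ileum and 0.00267 to 0.00295% in KO ileum. S100g was the highest or second highest of 21441 genes in each treated colon library, whereas it ranked between 2697 and 3396 in KO ileum.

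The spread of S100g differed between groups, and in groups of 3 or 4 libraries it depends on single libraries. The SD of its log2 values was 0.77 in treated, 1.66 in uninjected and 0.49 in KO colon (n = 3, 4 and 4), and 0.95 in treated, 1.92 in uninjected and 0.25 in KO ileum (n = 3, 3 and 4). Without Colon uninjected 3 the SD of uninjected colon was 0.78, and without Colon treated 2 that of treated colon was 0.33. Without Ileum uninjected 4 the SD of uninjected ileum was 0.37, and without Ileum treated 1 that of treated ileum was 0.56. Leaving out the most distant library lowers the SD of any group, so these values do not single out the uninjected libraries. Colon uninjected 3 combined the highest S100g of its group with the highest acinar sum and with the highest summed ileal markers, 1006 FPKM, against 77.0 FPKM in the uninjected library with the lowest sum. Its absorptive enterocyte markers, 10 genes, were also highest at 3256 FPKM, against 1540 FPKM in the lowest. Colon KO 3 was the highest KO library for S100g at 99.4 FPKM. It had the highest ileal sum of its group, 198.7 FPKM, against a group median of 74.1 FPKM and 60.7 FPKM in the lowest. It also had the group's highest sums of colon segment markers (8682 FPKM, group median 6621 FPKM) and epithelial markers (11423 FPKM, median 10280 FPKM). Its sums of absorptive enterocyte markers (1891 FPKM, median 1322 FPKM) and smooth muscle markers (2991 FPKM, median 2641 FPKM) were highest too. The part of these marker sums in the S100g levels was not tested.

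Among the 17 S100 genes listed, S100g was the only one past the threshold in any of the 6 comparisons as fitted above. It was the 1 call among 13 members tested in uninjected minus KO colon, beside 0.0804% of all genes. Treated minus KO colon likewise had 1 call among 13, beside 0.296% of all genes, treated minus KO ileum 1 call among 12, beside 0.0835%, and the other comparisons none (0). Other members did pass under some alternatives, which gave up to 3 calls in treated minus KO colon, 2 in treated minus KO ileum without Ileum treated 2, and 1 in treated minus uninjected ileum with a replicate block. That block fit rested on the libraries numbered 1 and 4 alone. For uninjected minus KO the other members tested had a median log2 difference of 0.34 in the colon and 0.28 in the ileum, beside -0.01 and 0.01 over all genes tested. For treated minus KO their median was -0.10 in the colon and 0.07 in the ileum, beside -0.01 and 0.00 over all genes. S100a6 and S100a10, of which S100A10 is a partner of annexin A2, were the most abundant other members in the colon. S100a6 averaged 3229 ± 1177 FPKM in uninjected colon and 2160 ± 398 FPKM in KO colon (SD, n = 4 each), a log2 difference of 0.51 that did not pass. S100g alone held 72.0 to 82.5% of the family's summed FPKM in treated colon, 21.4 to 78.5% in uninjected colon and 1.095 to 1.98% in KO colon. In the ileum it held 12.0 to 44.6% in treated, 19.1 to 63.9% in uninjected and 0.754 to 1.24% in KO libraries.

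S100a8, a subunit of calprotectin made in abundance by neutrophils, came closest to the threshold among the others and is named here after its values were seen. It stood at 5.95, 100.5 and 60.7 FPKM in treated colon libraries 1, 2 and 4, against 0.426, 0.781, 0 and 0.323 FPKM in KO colon libraries 1 to 4. The groups did not overlap, and the adjusted p was 0.0567 by limma. S100a8 met the filter of this fit only through the treated libraries. In the ileum it stood at 14.2, 4.77 and 23.3 FPKM in treated libraries 1, 2 and 4, against 0.984, 1.27, 0.893 and 0.898 FPKM in KO libraries 1 to 4 (adjusted p = 0.0828, limma). Leukocyte markers summed to 439 to 700 FPKM in treated and 300.2 to 668 FPKM in KO colon, and to 2031 to 3921 FPKM in treated and 2237 to 2927 FPKM in KO ileum, with overlap in both, and their part in the S100a8 values was not tested.

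**Figure D3:**
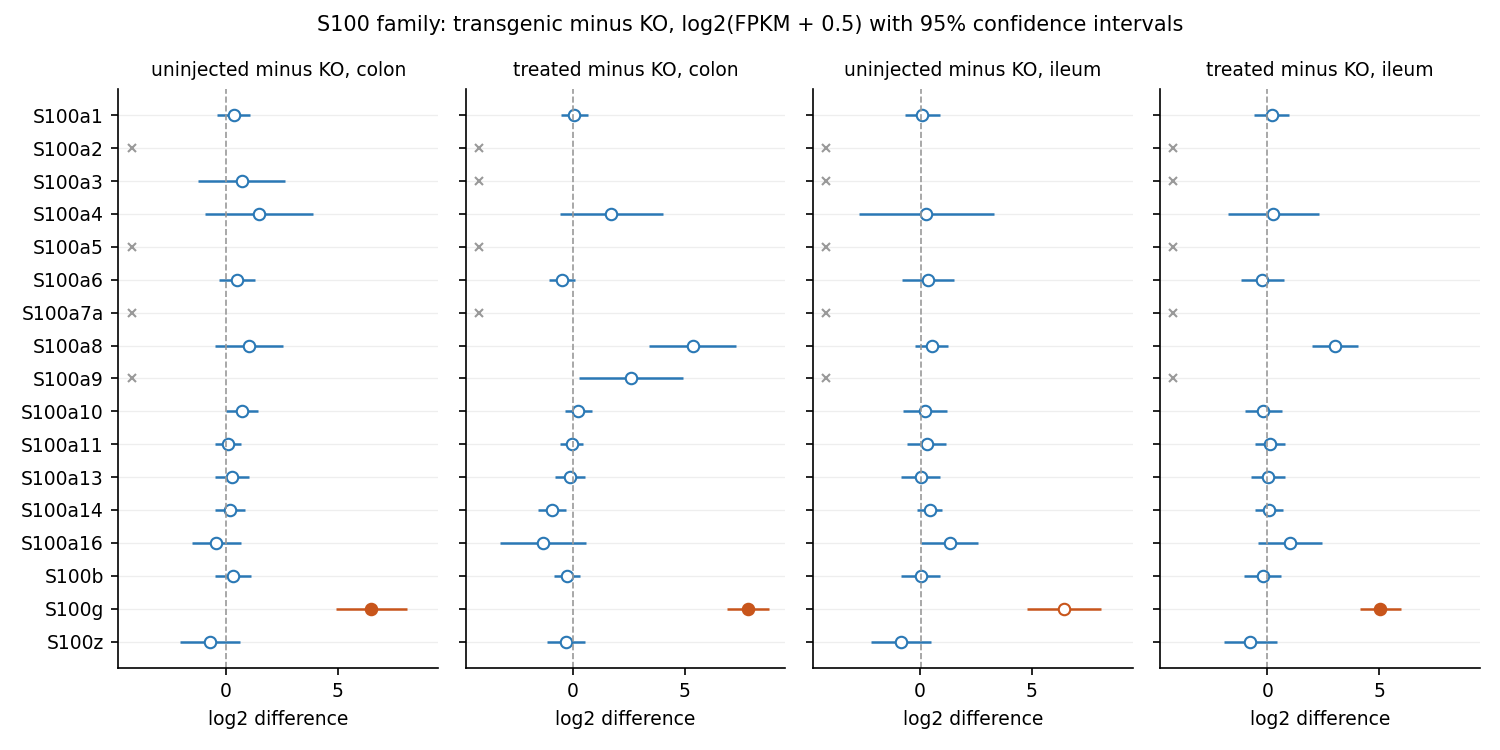
Log2 differences (FPKM + 0.5) of the 17 S100 genes in the 4 comparisons of transgenic with KO mice, with 95% confidence intervals. Filled points passed an adjusted p of 0.05, S100g is drawn in orange, crosses mark members under the filter of a mean of 1 FPKM, and the dashed line is the median of all genes tested. S100g lies at 5.06 to 7.84, and the highest value of another member is that of S100a8 at 5.35 in treated minus KO colon.

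Of 12 genes listed for the calcium route through the enterocyte, 2 of 7 tested rose in uninjected compared with KO colon, S100g and the channel gene Trpv6. Over all genes tested 0.0804% were called there. S100g is the gene the list was built around, and Trpv6 met the filter of a mean of 1 FPKM in the colon only through the transgenic libraries. The count is therefore a description. In treated minus KO colon 3 of 7 rose, these and the pump gene Atp2b1, beside 0.296% of all genes. In the ileum, treated minus KO, S100g was 1 of 6 tested and the only member that passed, beside 0.0835% of all genes, and in the other 3 comparisons none (0) did. In the colon the log2 difference of Trpv6 from KO was 8.36 in treated mice and 7.66 in uninjected mice. The size depends on the pseudocount, since KO libraries held at most 0.741 FPKM, and with pseudocounts of 1 and 0.1 it ran from 7.69 to 9.35 in treated and from 6.99 to 8.68 in uninjected mice. In the ileum Trpv6 stood at 1.08, 0.571 and 3.35 FPKM in treated libraries, against 0.104 to 0.168 FPKM in KO libraries, and was under the filter of the fit. Its mean level in uninjected colon was 205 ± 132 FPKM (SD, n = 4), against 9515 FPKM for S100g, both per length of transcript. The rise of Atp2b1 in treated minus KO colon was 1.34 (adjusted p = 0.0298, limma), and Atp2b1 stood at 120.1, 96.8 and 145.4 FPKM in treated libraries, against 41.5 to 50.6 FPKM in KO libraries. It no longer passed under 9 of 17 alternatives. Calbindin-D28k, encoded by Calb1, had at most a group mean of 0.122 FPKM in any table.

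None (0) of the 10 genes listed around S100g on chromosome X passed the test in any of the 6 comparisons, with 7 tested in each. Only genes with expression values were listed, 5 on each side. They lie 0 to 318343 bases away on the side of lower coordinates and 549305 to 1106106 bases away on the other. Over all genes at most 0.296% passed in any comparison, so no call among 7 genes is near that background. Ctps2, within whose span S100g lies, stood at 3.51 to 6.72 FPKM in uninjected and 4.44 to 5.18 FPKM in KO colon, a log2 difference of 0.07. For treated minus KO its difference was 0.24 in the colon and -0.12 in the ileum, with overlapping groups. Over the 7 neighbours tested, log2 differences for uninjected minus KO ran from -0.48 to 0.59 in the colon and from -1.01 to -0.0048 in the ileum. For treated minus KO they ran from 0.05 to 0.78 in the colon and from -0.76 to 0.13 in the ileum. Strand-specific counting is not stated in the sources used here, so reads of the introns of Ctps2 within S100g exons could not be separated from S100g reads.

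The genes most like S100g were ranked by the mean of Pearson's r with it over the 3 tables of a tissue (8, 7 and 7 libraries in the colon, 7, 6 and 7 in the ileum). This is a description, since libraries are shared between the tables and transgenic and KO libraries form separate clusters. In the colon the first 5 of 12198 genes were 1700034O15Rik (mean r 0.927), 5033404E19Rik (0.912), the focal adhesion gene Zyx (0.907), the transcription factor gene Maf (0.899) and the secreted phospholipase gene Pla2g3 (0.875). Trpv6 ranked ninth at 0.863. In the ileum, 4 of the first 5 among 11606 genes were Socs1, an inhibitor of cytokine signalling (0.889), the metallothionein Mt1 (0.878), 5033404E19Rik (0.849) and the uridine phosphorylase Upp1 (0.810). 5033404E19Rik was the only gene among the first 5 in both tissues. 1700034O15Rik stood at 0 FPKM in every KO colon library, and 5033404E19Rik at 0.225 FPKM or less in every KO ileum library. Beside those KO libraries, both genes met the filter of a mean of 1 FPKM only through the transgenic libraries. Their r with S100g there rests largely on KO values at or near the floor.

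Within the transgenic mice alone, likeness to S100g was mostly lower. 1700034O15Rik stood at 4.87, 4.44 and 3.73 FPKM in treated colon libraries 1, 2 and 4, against 2.02, 0.694, 6.89 and 0.204 FPKM in uninjected libraries 1 to 4, so that the highest uninjected library was number 3, as for S100g. In that table r was 0.902 (n = 7), against 0.645 for Trpv6. In the ileum 5033404E19Rik stood at 8.15, 20.5 and 76.4 FPKM in treated libraries 1, 2 and 4, against 99.99, 11.0 and 12.3 FPKM in uninjected libraries 1, 3 and 4, with r of 0.595 (n = 6). With 1 setting changed or 1 library left out, between 2 and 5 of the 5 genes named stayed among the first 5 in each tissue.

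**Figure D4:**
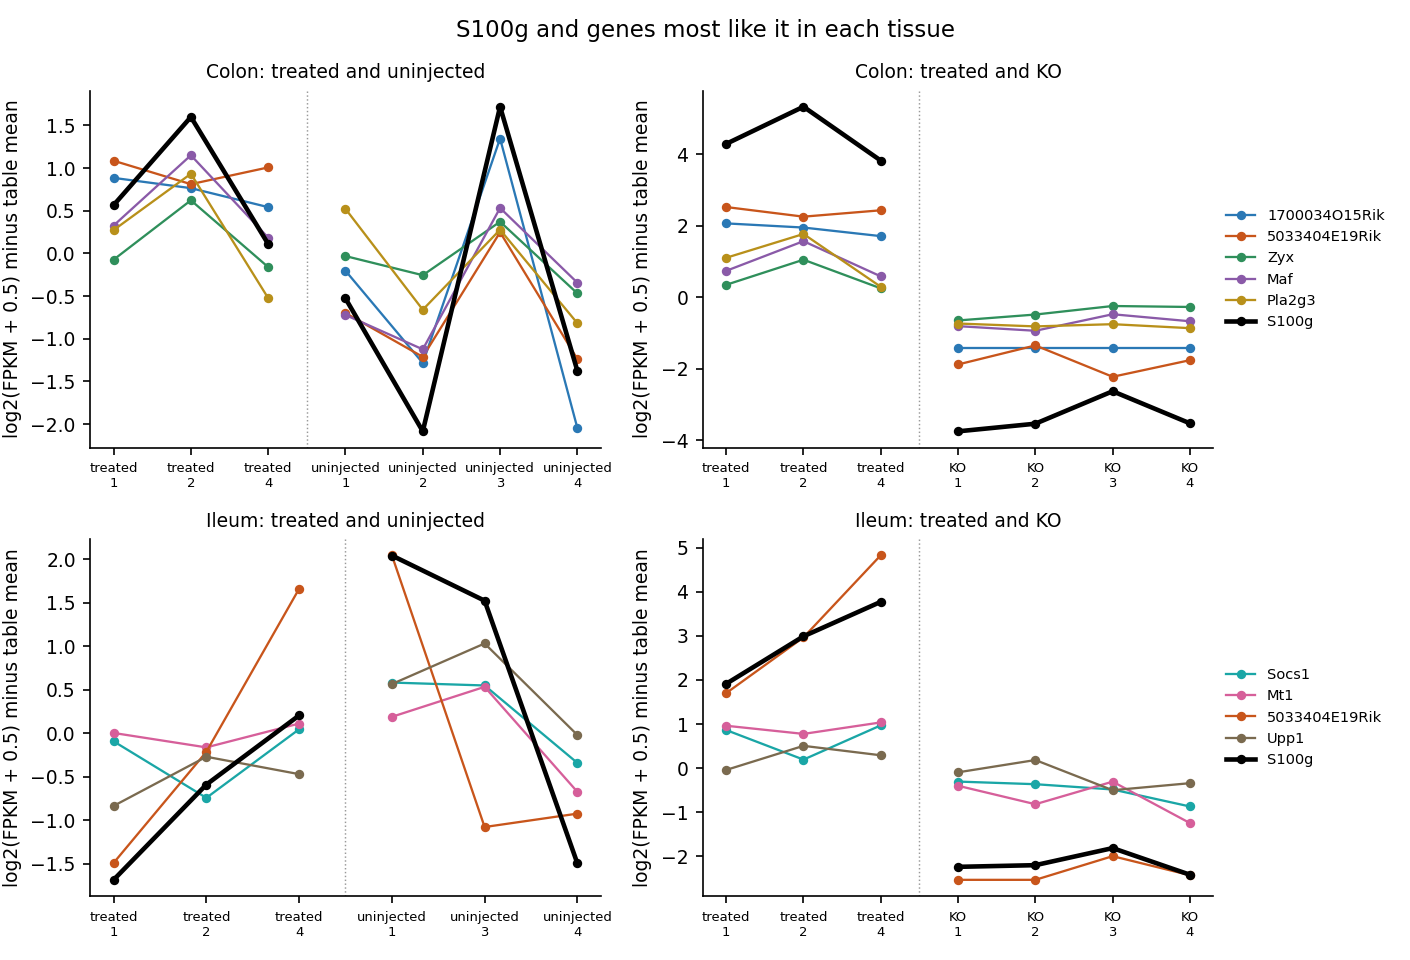
Log2(FPKM + 0.5) minus the gene's mean over the table, for S100g (black) and genes most like it, 5 in the colon (upper panels) and 4 in the ileum (lower panels), in the tables of treated and uninjected libraries and of treated and KO libraries. Points are libraries, whose order within a group has no meaning, and lines join the values of 1 gene within a group. In treated and uninjected colon S100g reaches 2.09 below and 1.72 above its mean, a range of 3.80, against 1.09 to 3.39 for the other 5 genes in that panel.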

How the data were processed

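The members and gene lists were chosen with earlier results of these data known. RNA was labelled as intestinal epithelium and sequenced after poly(A) selection, per the labels' protocols. The authors deposited FPKM values in 6 tables. The labels' protocols name CLC Genomics Workbench for mapping. The build mm9 and the tools kallisto 0.45.0, DESeq2 and DESeq 1.14.0 come from the submitters' processing notes. What each tool did, whether counting used strand, and how values were scaled are steps not given in the sources used here. The same library differs between tables by 1 factor, 0.966 to 1.09. Of 21 libraries, 12 columns match 1 sample and the others only a group.

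S100g was tested with limma 3.58.1 (R 4.3.3) on log2(FPKM + 0.5) over genes averaging 1 FPKM or more in the fit, two-sided, with Benjamini-Hochberg adjustment and a threshold of 0.05. The fit was tested on simulated data. Exact permutation tests used scipy 1.17.1. Differences between tissues came from 1 fit over 4 groups. Reads recovered from FPKM steps gave depth and Poisson intervals, which cover counting error only. Lists of the S100 family, the calcium route and 5 genes on each side of S100g were described by counts. Genes were named where they passed a test, else from the 4 with the highest level in a list, and as the 5 most like S100g per tissue, of which 1 in the ileum is not reported here. Same-numbered libraries deviated together in treated and KO ileum (r 0.227, 0.113 and 0.505) and in treated and uninjected colon (r 0.221, 0.0687 and 0.392). Some libraries of unlike number did so too, such as Ileum treated 2 and Ileum KO 3 (r 0.239). Libraries of number 4 deviated together in every comparison (r 0.218 to 0.671), while those of number 1 did not in treated and uninjected ileum (r -0.396). A block on the number was therefore tried in each comparison. Other alternatives were pseudocounts of 0.1 and 1, no filter, other scalings, labelled sex, all 3 groups in 1 fit, and leaving out each library. In the series' text the numbers of treated and uninjected colon samples differ from the labels, which were followed.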

Additional observations from a re-analysis of the deposited data

Results flagged for a closer look

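In 4 of 24 groups of FPKM values of S100g and other named genes, tested with Dixon's criterion, 1 library lay far from the others of its group, and chance gives about 1 in 20. Colon uninjected 3 held S100g at 27256 FPKM in the table with KO libraries and at 27297 FPKM in the table with treated libraries, with the next library at 5694 and 5751 FPKM. The gap took up 0.851 and 0.850 of the group's range, against a critical value of 0.829. Colon KO 3 held S100g at 106.6 FPKM in the table with treated libraries and at 99.4 FPKM in the table with uninjected libraries, with the next library at 57.0 and 53.6 FPKM. Each pair of values is 1 library scaled differently in its 2 tables, so the 4 values come from 2 libraries. The criterion was applied to FPKM. On the log2(FPKM + 0.5) scale of the tests the gap took up 0.592 and 0.591 of the range for Colon uninjected 3 and 0.801 and 0.802 for Colon KO 3, all under the critical value.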

How the results depend on the processing

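S100g in treated minus KO colon kept its direction and passed the threshold under all 17 alternatives, with differences of 7.42 to 8.17 when 1 library was left out. Uninjected minus KO colon kept its direction under all 19 and passed under 15. It did not pass with labelled sex as a covariate (5.71) or without Colon KO 1, 2 or 4, and ranged from 5.75 to 7.02 with 1 library left out. Uninjected minus KO ileum passed after division by the summed FPKM (6.301, adjusted p = 0.0275), with 3 groups in 1 fit (6.43, adjusted p = 0.0363) and without Ileum uninjected 4, and ranged from 5.76 to 7.53 with 1 library left out. Treated minus KO ileum did not pass with 3 groups in 1 fit (5.06) and ranged from 4.62 to 5.55. The tissue difference for uninjected minus KO changed sign after division by the summed FPKM (0.0785) and without Ileum uninjected 4 (1.02), Colon uninjected 3 (0.68), Colon KO 1 (0.05) or Ileum KO 3 (0.03), within a range of -0.76 to 1.02. All adjusted p-values here are limma's, and the cause of each change was not tested.

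With the replicate number as a block, the differences were 6.52 for uninjected minus KO colon (10 genes called without the block, 3 with it), 2.09 for treated minus uninjected colon, 8.09 for treated minus KO colon (37 and 18 genes), 6.43 for uninjected minus KO ileum, -1.01 for treated minus uninjected ileum (0 and 34 genes) and 5.18 for treated minus KO ileum. The block changed no call for S100g. A library whose number is absent from the other group adds nothing to the difference in this fit. With number 3 missing from treated colon, the 2.09 and 8.09 equal the differences without Colon uninjected 3 and without Colon KO 3. In treated and uninjected ileum the fit with the block, and so its 34 calls, rested on the libraries numbered 1 and 4 alone. No label makes a shared number a pairing, although libraries of number 4 deviated together in every comparison (r 0.218 to 0.671).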
